A study of Mus musculus with 19 samples.

Results

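The genes described here encode the proteins of the cytosolic ribosome of the mouse. They were chosen by symbol from the deposited gene table, as protein-coding genes named Rpl, Rps or Rplp with a number, together with Rpsa, and without the kinases of similar name. The rule found 84 genes of 24237 in the table, and no expression value was used in it. A symbol rule leaves out genes such as Rpl36al, Fau and Rack1, whose products also sit on the ribosome, and these are given separately. Of the 84 members, 80 passed the filter on low values and were tested, 48 of the large and 32 of the small subunit, and Rpl39l, Rpl10l, Rpl6l and Rpl3l did not pass.

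A ribosome carries nearly all of these proteins in equal numbers, so cells make them in matched amounts. Their mRNAs share a run of pyrimidines at the 5′ end, the TOP motif, through which mTORC1 signalling adjusts their translation together, and growing or dividing cells hold more ribosomes than resting ones. In adipose tissue the mature adipocyte is filled by a lipid droplet with a thin rim of cytoplasm, and the stromal and immune cells around it add their own ribosomes to the RNA of the whole tissue.

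The samples were epididymal white adipose tissue (eWAT) of 19 C57Bl6/J wild-type mice fed 1 of 4 diets for 17 weeks, with 1 RNA-seq library per mouse. NormMg-LFD mice (4, replicates 2 to 5) ate a low-fat diet with normal magnesium and LowMg-LFD mice (5) a low-fat diet low in magnesium. NormMg-HFD mice (5) ate a high-fat diet with normal magnesium and LowMg-HFD mice (5) a high-fat diet low in magnesium. Each library held 12986441 to 13027028 reads, of which 86.1% to 90.4% mapped, and values are FPKM, fragments per kilobase of transcript, scaled to the mapped reads of each library.

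The tissue label was checked against markers. All 7 adipocyte markers passed the filter, with a summed level of 10620 to 18687 FPKM per mouse, and the 6 lymphocyte markers did not, with 3.48 to 28.5 FPKM. Some libraries stood apart. The 8 testis genes listed after the values had been seen summed to 3468 FPKM in LowMg-HFD replicate 4 and to 725 FPKM in NormMg-LFD replicate 5, against 1.17 to 310 FPKM in the other mice. NormMg-LFD replicate 3 held 1448 FPKM of exocrine pancreas markers (12.4 to 52.4 FPKM elsewhere) and LowMg-LFD replicate 4 held 106.8 FPKM of epididymis markers (at most 3.84 FPKM elsewhere). The study's methods leave out a LowMg-HFD sample with some pancreatic tissue, which the labels do not identify. The pancreas sums of the 5 LowMg-HFD libraries were 20.4 to 44.2 FPKM, so all 5 were kept. Counts of members that passed are also given without NormMg-LFD replicate 3, LowMg-LFD replicate 4 and LowMg-HFD replicate 4, the highest in each of the 3 lists, and again without NormMg-LFD replicates 4 and 5 as well, which leaves 1 mouse in that group, assumed to vary like the others. Both alternatives were chosen after the values were seen.

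The promoters were read for sequence features that some of the members share. RefSeq entries (build GRCm38.p6, 250 bases before to 50 after the annotated start) were found for 63 of the 84 members. The longest unbroken run of C and T within 30 bases of the start reached 8 bases or more in 32 of these 63 members (50.8%), against 22.8% of 27025 genes. The 27025 are all genes with an entry and were not matched to the members in level. The GABP motif CCGGAAG, read on both strands, was in 39.7% of the members' promoters and in 9.12% of all, and the YY1 motif CCATCTT, also on both strands, in 14.3% and 6.48%. Start windows of 60 bases are shown for 4 members that differ in their values below, with the pyrimidine run in capitals, chosen after their values were seen. They lie at chr2:39005102-39005161 (minus strand), chr17:33955636-33955695 (minus strand), chr4:86857338-86857397 (minus strand) and chr7:141447621-141447680 (plus strand).
Rpl35: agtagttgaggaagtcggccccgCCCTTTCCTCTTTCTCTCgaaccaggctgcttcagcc
Rps18: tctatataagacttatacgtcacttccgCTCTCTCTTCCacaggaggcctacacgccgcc
Rps6: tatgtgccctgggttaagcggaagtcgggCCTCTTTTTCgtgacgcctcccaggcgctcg
Rplp2: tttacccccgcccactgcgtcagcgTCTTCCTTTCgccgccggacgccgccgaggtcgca
The run is 18 bases long in Rpl35, 11 in Rps18 and 10 in Rps6 and Rplp2, and it overlaps the annotated start in each of them.

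Whole promoters are shown for the 3 members with an entry that had the smallest adjusted p between HFD and LFD at normal Mg2+, with matches of the GABP and YY1 motifs in capitals, and also the longest pyrimidine run within 30 bases of the start where it reached 8 bases. Runs elsewhere in the window are not marked. They lie at chr15:5116363-5116662 (plus strand), chr7:118116098-118116397 (minus strand) and chr7:99483660-99483959 (minus strand).
Rpl37: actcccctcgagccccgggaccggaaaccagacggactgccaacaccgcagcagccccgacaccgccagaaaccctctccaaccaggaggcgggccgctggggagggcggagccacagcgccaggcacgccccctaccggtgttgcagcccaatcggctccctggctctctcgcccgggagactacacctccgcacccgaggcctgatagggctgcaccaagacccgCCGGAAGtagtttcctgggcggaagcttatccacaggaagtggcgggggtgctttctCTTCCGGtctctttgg
Rps15a: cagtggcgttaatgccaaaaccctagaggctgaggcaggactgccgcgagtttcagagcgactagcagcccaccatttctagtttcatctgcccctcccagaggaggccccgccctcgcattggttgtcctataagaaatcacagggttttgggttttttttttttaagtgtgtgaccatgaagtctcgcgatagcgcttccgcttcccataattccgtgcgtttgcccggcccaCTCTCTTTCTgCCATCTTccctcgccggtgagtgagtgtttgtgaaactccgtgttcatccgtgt
Rps3: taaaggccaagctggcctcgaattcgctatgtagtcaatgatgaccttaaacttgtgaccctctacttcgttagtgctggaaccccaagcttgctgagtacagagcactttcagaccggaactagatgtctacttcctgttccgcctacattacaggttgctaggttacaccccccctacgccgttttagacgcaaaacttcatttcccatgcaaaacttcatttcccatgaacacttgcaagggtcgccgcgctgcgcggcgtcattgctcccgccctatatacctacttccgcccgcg
Rpl37 holds the GABP motif 2 times, Rps15a a pyrimidine run of 10 bases at the start followed by the YY1 motif, and Rps3 neither motif and no run of 8 bases at the start. Of the tested members with an entry, 31 with a run of 8 bases or more had a median log2 difference of -0.28 for low against normal Mg2+ on HFD and 29 with a shorter run one of -0.29. These matches describe letters in a window and are not evidence of binding.

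Most members were abundant mRNAs of the tissue, 77 of the 80 tested having a mean level above 20.3 FPKM, the median of all 8336 genes tested. Together they held 4.12% ± 0.315 (SD, n = 4) of the summed FPKM in NormMg-LFD mice, 3.82% ± 0.340 (n = 5) in LowMg-LFD, 4.97% ± 0.492 (n = 5) in NormMg-HFD and 4.15% ± 0.196 (n = 5) in LowMg-HFD. The highest mean levels over 19 mice were those of Rplp1 (894 FPKM), an acidic stalk protein, Rpl13a (726 FPKM), Rps12 (629 FPKM), Rpl10 (620 FPKM), which completes the large subunit late in its assembly, and Rps24 (560 FPKM). The lowest mean levels among the tested members were those of Rpl12 (13.1 FPKM), Rpl27 (16.3 FPKM), Rpl5 (17.0 FPKM), Rpl7l1 (21.8 FPKM) and Rps20 (30.6 FPKM). Genes whose products are needed in equal amounts thus spanned a wide range of assigned levels.

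Reads shared with copies bear on these levels. Ribosomal protein genes have many processed pseudogenes, intronless copies of their mRNA, and a 50-base read can match both. The share of 50-base windows of a member's transcript that also occurs in another gene (GENCODE M21) ran from 0% to 98.6% over 83 members, 98.6% being Rps27. The deposited annotation gives 920 copies the same orthology as a member, and 76 of them had a mean level over 1 FPKM. Some copies are annotated as protein-coding, among them Rpl27-ps3 and Rpl36al. Rpl12 alone held 3.54% of the 371 FPKM of its family, while the processed pseudogene Gm10275 was listed at 308 FPKM. Likewise Rpl5 held 5.95% of 286 FPKM beside Gm15500, and Rpl27 held 6% of 271 FPKM beside Rpl27-ps3. Members and copies were summed into 75 families, which held 82 of the 84 members and placed paralogues together. Rpl41, with no orthology entry, and Rps27a were left out and have no family sum. The levels of the families ran from 226 to 985 FPKM, a far narrower span, and in 21 of them the gene itself held less than 50%.

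**Figure D1:**
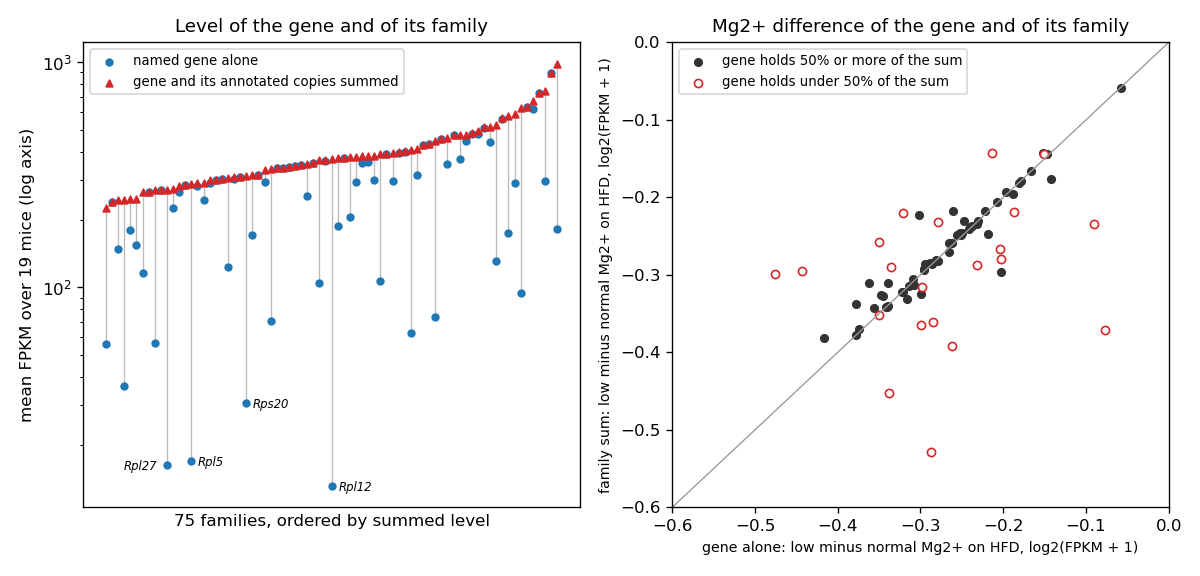
Left, mean FPKM over 19 mice (log axis) of the leading ribosomal protein gene alone (circles) and summed with its annotated copies (triangles), for 75 families (without Rps27a and Rpl41) ordered by the sum, which runs from 226 to 985 FPKM. Right, the difference between LowMg-HFD and NormMg-HFD in log2(FPKM + 1) for the gene alone (x axis) and the family sum (y axis), with the line of equality. All 75 family sums lie below 0, and the 21 families with the gene under 50% of the sum (open circles) scatter most.

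The first question was whether low dietary Mg2+ changed these genes on the high-fat diet. The mean of log2(FPKM + 1) over the 80 tested members was 7.90, 7.83, 8.23, 7.97 and 7.91 in NormMg-HFD replicates 1 to 5 and 7.75, 7.75, 7.70, 7.65 and 7.63 in LowMg-HFD replicates 1 to 5. The groups did not overlap, and NormMg-HFD replicate 3 lay well above the other mice. All 80 members had a lower mean on low Mg2+ (79 of 80 when each mouse was centred on its median gene and 74 of 80 after quantile normalization), with a median log2 difference of -0.28 against -0.04 over all 8336 genes tested, and a range from -0.49 to -0.06. With limma at an adjusted p under 0.05, 32 of the 80 fell and none rose, while 12.9% of all genes tested fell and 5.58% rose. NormMg-HFD and LowMg-HFD values did not overlap, with low Mg2+ lower, for 31 members, against 9.56% of all genes. The large subunit had 20 of 48 members called (median -0.28) and the small subunit 12 of 32 (median -0.27).

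**Figure D2:**
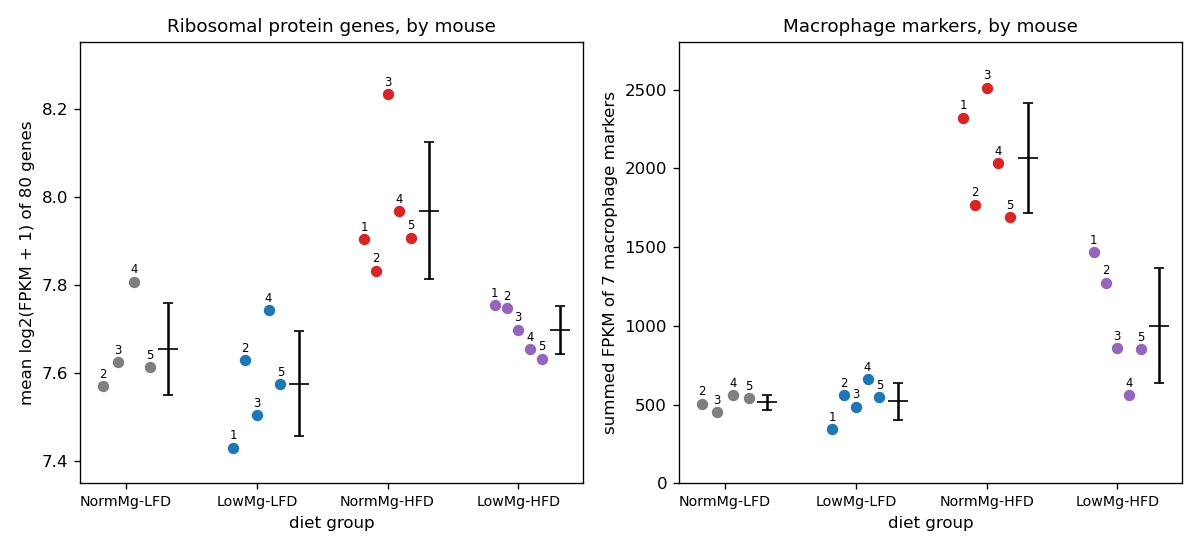
Left, mean log2(FPKM + 1) of the 80 tested members in each mouse (points, numbered by replicate) with the group mean ± SD, from 7.43 in LowMg-LFD replicate 1 to 8.23 in NormMg-HFD replicate 3. Right, summed FPKM of 7 macrophage markers in the same mice, where all 5 NormMg-HFD mice lie above all LowMg-HFD mice.

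The count rested on a few mice. NormMg-HFD replicate 3 had the highest value of its group for 74 of the 80 members, and without it 7 members fell, near the share of all genes that fell in that fit (8.06%). In that fit 79 of the 80 differences were negative, with a median of -0.21. The count was 13 without LowMg-HFD replicate 5 (9.55% of all genes), 17 without NormMg-HFD replicate 4 (9.77%), 18 without LowMg-HFD replicate 3 (9.34%), 19 without NormMg-HFD replicate 1 (9.4%) and 19 without LowMg-HFD replicate 4 (11%). Without NormMg-LFD replicate 3, LowMg-LFD replicate 4 and LowMg-HFD replicate 4 it was 17 (10.7% of all genes), and without NormMg-LFD replicates 4 and 5 as well 18 (10.8%), with 80 of 80 differences negative in both. Centring on each mouse's median gene left 18 members that fell (10.2% of all genes), and quantile normalization left 4 of 80, at a median of -0.15, where 10.5% of all genes fell.

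Macrophage markers moved the same way. All 7 fell on low Mg2+, and their sum was 1690 to 2512 FPKM in NormMg-HFD mice and 560 to 1467 FPKM in LowMg-HFD mice. NormMg-HFD replicate 3 had the highest sum, 2512 FPKM. No macrophage marker was at 0 in all mice. Of the adipocyte markers 3 of 7 rose on low Mg2+, as did 1 of 4 endothelial markers, while 1 of 4 stromal markers fell. None of the lymphocyte, epididymis or testis markers passed the filter. The part of these cells in the result was not tested, and in bulk tissue fewer cells of a type and less RNA per cell cannot be told apart.

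The 5 largest falls included genes of both subunits. Rps27a, which encodes ubiquitin fused to a small-subunit protein (ENSMUSG00000020460.15, chr11:29545846-29548109, GRCm38, minus strand), was at 189, 149, 225, 202 and 161 FPKM in NormMg-HFD mice and at 140, 149, 137, 113 and 118 FPKM in LowMg-HFD mice. The groups only just separated. It fell by 0.49 ± 0.12 (SE) on the log2 scale (limma, adjusted p = 0.00749). Of the windows of Rps27a 71.9% also occur in another gene, and it has no family sum to set beside this fall. Rps3, which lines the mRNA entry channel and also takes part in DNA repair (ENSMUSG00000030744.13, chr7:99477896-99483738, minus strand), was at 463, 417, 558, 475 and 412 FPKM against 360, 365, 359, 346 and 347 FPKM. The LowMg-HFD mice lay close together below every NormMg-HFD mouse, and Rps3 fell by 0.38 ± 0.09 (adjusted p = 0.00743). Of the 37 tested members chosen by the naming rule, these 2 alone passed for low Mg2+ on HFD under each of 30 alternatives, family sums and joint exclusions of mice not included.

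Rpl36a, on the X chromosome, read 167, 156, 180, 162 and 121 FPKM in NormMg-HFD mice and 118, 106, 131, 122 and 87.0 FPKM in LowMg-HFD mice, which overlapped at NormMg-HFD replicate 5. It fell by 0.48 ± 0.14 (adjusted p = 0.0218), and the sum with its copies, of which the gene held 40.1%, by 0.30 ± 0.09 (adjusted p = 0.0303). That sum includes the protein-coding gene Rpl36al, at a mean of 117 FPKM. Rpl13 read 361, 313, 524, 346 and 321 FPKM against 319, 254, 276, 241 and 260 FPKM and fell by 0.44 ± 0.14 (adjusted p = 0.0346). Replicate 3 of NormMg-HFD was far above the rest of its group here, and LowMg-HFD replicate 1 reached into the NormMg-HFD range. The Rpl13 family sum, of which the gene held 40%, fell by 0.30 ± 0.10 (adjusted p = 0.0394). Rps16, a protein of the small subunit's head, read 243, 229, 315, 270 and 257 FPKM against 195, 219, 185, 202 and 180 FPKM, without overlap, and fell by 0.42 ± 0.11 (adjusted p = 0.0162). Of the same 30 alternatives 5 ended the call of Rpl36a, 11 that of Rpl13 and 2 that of Rps16.

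At the other end Rplp2, the partner of Rplp1 in the stalk that recruits elongation factors, showed the smallest difference. It was at 406, 384, 501, 440 and 473 FPKM in NormMg-HFD mice and 431, 415, 444, 409 and 409 FPKM in LowMg-HFD mice, with the groups intermixed. The log2 difference was -0.06 (95% interval -0.24 to 0.12, adjusted p = 0.684), and its sign turned when each mouse was centred on its median gene. The difference of Rps29 was -0.08 ± 0.09 (adjusted p = 0.591). In the sum of Rps29 with its annotated copies, which the gene held to 18.3%, the difference was -0.37 ± 0.12 (adjusted p = 0.0308).

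**Figure D3:**
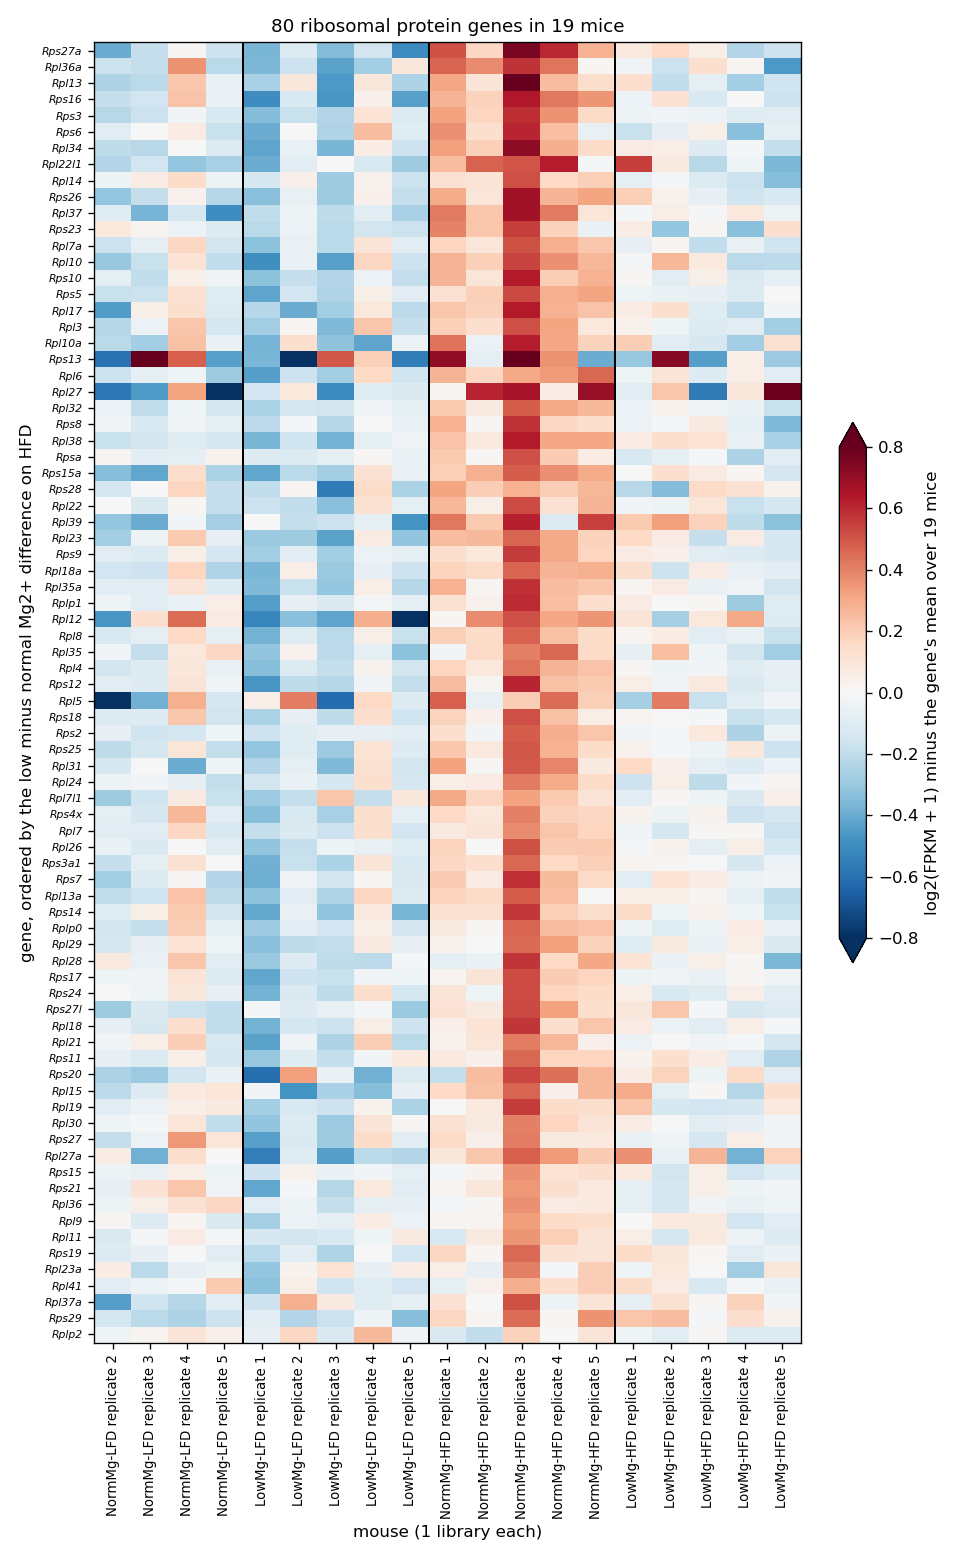
Colour gives log2(FPKM + 1) minus the gene's mean over 19 mice for the 80 tested members (rows, ordered by the low minus normal Mg2+ difference on HFD) in each mouse (columns, by diet group). NormMg-HFD replicate 3 is the highest of its group for 74 of 80 members, and Rplp2, in the last row, differs least between the groups on HFD.

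Counts by role are small, and differences between roles were not tested. None of the 4 stalk genes passed, where 12.9% of all genes fell: Rplp0, the stalk base, differed by -0.24 ± 0.09 (adjusted p = 0.0832), Rplp1 by -0.29 ± 0.11 (adjusted p = 0.0665), and Rpl12, which sits beside them, by -0.29 ± 0.19 (adjusted p = 0.304). The Rpl12 family sum fell by 0.53 ± 0.11 (adjusted p = 0.00441), the sum being mostly Gm10275. Neither Rpl5 nor Rpl11 passed, which carry the 5S rRNA and bind Mdm2 when free, with differences of -0.28 ± 0.20 (adjusted p = 0.347) and -0.15 ± 0.08 (adjusted p = 0.213). Of 8 genes at the peptide exit tunnel 3 fell (12.9% of all genes), Rpl4 by 0.28 ± 0.08 (adjusted p = 0.0178), Rpl17 by 0.34 ± 0.12 (adjusted p = 0.0485) and Rpl26 by 0.25 ± 0.08 (adjusted p = 0.0448). Rpl39, Rpl19, Rpl23a, Rpl31 and Rpl35 did not pass, with adjusted p from 0.0810 to 0.358. Summed with their copies, Rpl39 fell by 0.36 (adjusted p = 0.0244), Rpl19 by 0.30 (adjusted p = 0.0308), Rpl31 by 0.39 (adjusted p = 0.00867) and Rpl35 by 0.36 (adjusted p = 0.0102), so of these 5 only Rpl23a did not pass as a family. The falls of Rpl17 and Rpl26 lay close to the threshold, and their calls were lost in 22 and 19 of the 30 alternatives and that of Rpl4 in 2.

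Both genes of the mRNA entry channel fell (12.9% of all genes), Rps3 as given above and Rps2 by 0.27 ± 0.08 (adjusted p = 0.0359). Rps6, the substrate of the S6 kinases downstream of mTORC1, read 383, 325, 453, 351 and 285 FPKM in NormMg-HFD mice and 263, 283, 307, 235 and 282 FPKM in LowMg-HFD mice. NormMg-HFD replicate 5 lay within the LowMg-HFD range, and Rps6 fell by 0.38 ± 0.12 (adjusted p = 0.0393). The call of Rps2 was lost in 9 of the 30 alternatives and that of Rps6 in 12. Rps18, a common reference gene for PCR, differed by -0.27 ± 0.10 (adjusted p = 0.0723), and Rpl13a, another, by -0.24 ± 0.11 (adjusted p = 0.134).

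Some members have a paralogue, a gene of related sequence. The 7 pairs read here include a paralogue that is not itself a member. Of the 11 tested genes of the 7 pairs, 3 fell, where 12.9% of all genes did: Rpl3 by 0.34 ± 0.11 (adjusted p = 0.0448), Rpl7 by 0.25 ± 0.08 (adjusted p = 0.0421) and Rpl22 by 0.30 ± 0.10 (adjusted p = 0.0357). These calls were lost in 15, 14 and 11 of the 30 alternatives. Rpl22l1, the paralogue of Rpl22, differed by -0.36 ± 0.14 (adjusted p = 0.0841), Rpl7l1 by -0.26 ± 0.10 (adjusted p = 0.0721) and Rps27l by -0.22 ± 0.09 (adjusted p = 0.102). The striated-muscle paralogue Rpl3l was at 0 to 0.690 FPKM in every mouse.

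The testis paralogues marked 1 library. Rpl39l (ENSMUSG00000039209.12, chr16:10170226-10174911, plus strand) was at 34.5 FPKM in LowMg-HFD replicate 4 and at 0 to 1.31 FPKM in the other LowMg-HFD mice. Rpl10l (ENSMUSG00000060499.7, chr12:66283379-66284401, minus strand), an intronless copy of X-linked Rpl10 used in male germ cells, was at 19.3 FPKM in that mouse and at 0 in the other 4. In NormMg-LFD replicates 2 to 5 Rpl39l read 0.660, 0, 3.41 and 1.32 FPKM and Rpl10l 0.340, 0, 2.48 and 1.72 FPKM, and the highest LowMg-LFD or NormMg-HFD values were 1.32 and 0.510 FPKM. The testis gene sums of LowMg-HFD replicate 4 and of NormMg-LFD replicates 4 and 5 were 3468, 310 and 725 FPKM, higher than in any other mouse. None of the windows of Rpl39l and 7.60% of those of Rpl10l occur in another gene.

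**Figure D4:**
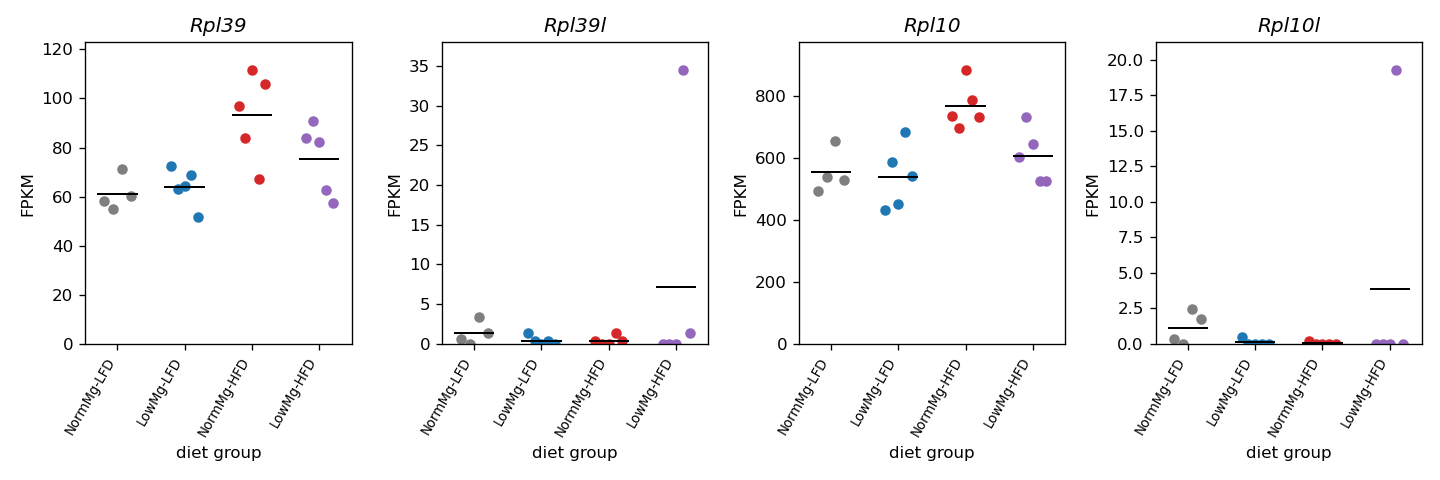
FPKM of Rpl39, Rpl39l, Rpl10 and Rpl10l in each mouse (points) with the group mean (line), by diet group, each on its own axis from 0. Rpl39l and Rpl10l are near 0 except in LowMg-HFD replicate 4, at 34.5 and 19.3 FPKM.

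On the low-fat diet the question of low against normal Mg2+ gave no call. The mean of log2(FPKM + 1) over the members was 7.57, 7.62, 7.81 and 7.61 in NormMg-LFD replicates 2 to 5 and 7.43, 7.63, 7.50, 7.74 and 7.57 in LowMg-LFD replicates 1 to 5, with the groups intermixed. The median log2 difference of the members was -0.08 (all genes -0.06), and 62 of 80 were negative. It ran from -0.13 without LowMg-LFD replicate 4 to -0.032 without NormMg-LFD replicate 4, and after centring it was -0.0098 with 46 of 80 negative. By limma 0 of 80 members and 0% of all genes passed, and 2 members had an unadjusted p under 0.05 with a lower mean on low Mg2+, Rpl36 and Rpl12, against 4.86% of all genes.

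Whether the Mg2+ difference itself changed with dietary fat was asked by the interaction of Mg2+ and fat. Its median over the members was -0.20 (all genes 0.01), and 74 of 80 were negative. Without single mice the median ran from -0.25 to -0.13, and after quantile normalization it was smaller in size, as given below. None of the 80 passed, where 1.25% of all genes did, and 11 members had an unadjusted p under 0.05, all negative, against 11% of all genes with a negative one. The smallest p belonged to Rpl37 (log2 interaction -0.47 ± 0.14, adjusted p = 0.0785). For the Rpl37 family sum, of which the gene held 24.9%, the interaction was -0.27 ± 0.17 (adjusted p = 0.391). The larger difference on HFD than on LFD was thus not established for any single member.

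The high-fat diet at normal Mg2+ was compared with the low-fat diet next. It shares the NormMg-HFD mice with the comparison above, so the values stand side by side and the 2 do not support each other. Of the 80 members 79 had a higher mean on HFD (75 after centring and 64 after quantile normalization), with a median log2 difference of 0.29 (all genes 0.07). That median was 0.19 after centring and 0.11 after quantile normalization. By limma 46 rose and none fell, against 24.6% of all genes that rose and 12.8% that fell, and the groups did not overlap for 28 members, against 21.5% of all genes. The large subunit had 27 of 48 called and the small subunit 19 of 32, both at a median of 0.29. The count was 29 without NormMg-LFD replicate 2 (20.8% of all genes rose), 29 without NormMg-HFD replicate 3 (21.4%) and 30 without NormMg-LFD replicate 5 (21.7%). Without NormMg-LFD replicate 3, LowMg-LFD replicate 4 and LowMg-HFD replicate 4 it was 33 (22%), and without NormMg-LFD replicates 4 and 5 as well, with 1 NormMg-LFD mouse left, it was 15 (15%), near the share of all genes. After centring 24 rose (19% of all genes), and after quantile normalization 13 rose (18% of all genes) and 2 fell, Rplp2 and Rpl36 (20.3% of all genes). All 7 macrophage markers rose too, from a sum of 453 to 560 FPKM in NormMg-LFD mice to 1690 to 2512 FPKM. Of the adipocyte markers 4 of 7 fell and 1 rose, 1 of 4 endothelial markers fell and 1 of 4 stromal markers rose. Their part in the result was not tested.

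Rpl37 (ENSMUSG00000041841.7, chr15:5116645-5119140, plus strand) had the smallest adjusted p. It read 51.5, 42.4, 50.04 and 38.9 FPKM in NormMg-LFD mice and 74.2, 64.6, 88.6, 74.0 and 59.2 FPKM in NormMg-HFD mice, without overlap, and rose by 0.64 ± 0.10 on the log2 scale (adjusted p = 8.4e-05). The gene held 24.9% of its family, and the family sum rose by 0.33 ± 0.12 (adjusted p = 0.0395). Its difference for low Mg2+ on HFD was a fall of 0.35 ± 0.10 (adjusted p = 0.0188), to 54.9, 57.3, 54.8, 58.6 and 53.7 FPKM.

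Rpl27 had the largest rise, from 9.95, 10.9, 19.4 and 7.24 FPKM to 15.6, 24.02, 24.9, 16.1 and 25.5 FPKM, with NormMg-LFD replicate 4 inside the HFD range. It rose by 0.84 ± 0.25 (adjusted p = 0.0127), but its family sum rose by 0.33 ± 0.10 (adjusted p = 0.0131). Rps27a rose by 0.65 ± 0.12 (adjusted p = 0.000386) from 100.3, 117, 133 and 118 FPKM. Rpl22l1 rose by 0.60 ± 0.15 (adjusted p = 0.00418) from 50.4, 53.4, 47.8 and 49.5 FPKM to 70.7, 82.8, 84.5, 92.2 and 58.6 FPKM, without overlap. Rpl39, which reaches into the exit tunnel, rose by 0.59 ± 0.15 (adjusted p = 0.00532) from 58.0, 54.8, 71.2 and 60.1 FPKM to 97.1, 83.9, 111.7, 67.0 and 106.1 FPKM, the groups overlapping at NormMg-HFD replicate 4. The Rpl39 family sum, of which the gene held 16.7%, rose by 0.41 ± 0.11 (adjusted p = 0.00876).

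In the role groups Rplp0 was the 1 stalk gene that rose, by 0.26 ± 0.10 (adjusted p = 0.0459), a call lost in 20 of the 30 alternatives. The Rpl12 family sum, mostly Gm10275, rose by 0.61 ± 0.12 (adjusted p = 0.000543), while Rplp2 had the only negative difference of the 80, -0.04 ± 0.09 (adjusted p = 0.754). Neither gene of the 5S particle passed, Rpl5 at 0.51 ± 0.21 (adjusted p = 0.0621) and Rpl11 at 0.14 ± 0.09 (adjusted p = 0.218), while the Rpl5 family sum rose by 0.25 ± 0.10 (adjusted p = 0.0479). In the exit tunnel 5 of 8 rose (24.6% of all genes), Rpl4, Rpl17, Rpl39, Rpl26 and Rpl31, and both entry-channel genes rose. As family sums Rpl19 and Rpl35 rose too, by 0.36 (adjusted p = 0.007) and 0.36 (adjusted p = 0.00626). Rps6 did not pass (0.31 ± 0.13, adjusted p = 0.0726), and its family sum rose by 0.29 ± 0.10 (adjusted p = 0.0282). Among the paralogue pairs 6 of 11 rose, where 24.6% of all genes did, including Rps27l by 0.43 ± 0.10 (adjusted p = 0.00207), while Rps27 was at 0.10 ± 0.12 (adjusted p = 0.526). That Rps27l and Rps27 differ in their response was not tested.

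**Figure D5:**
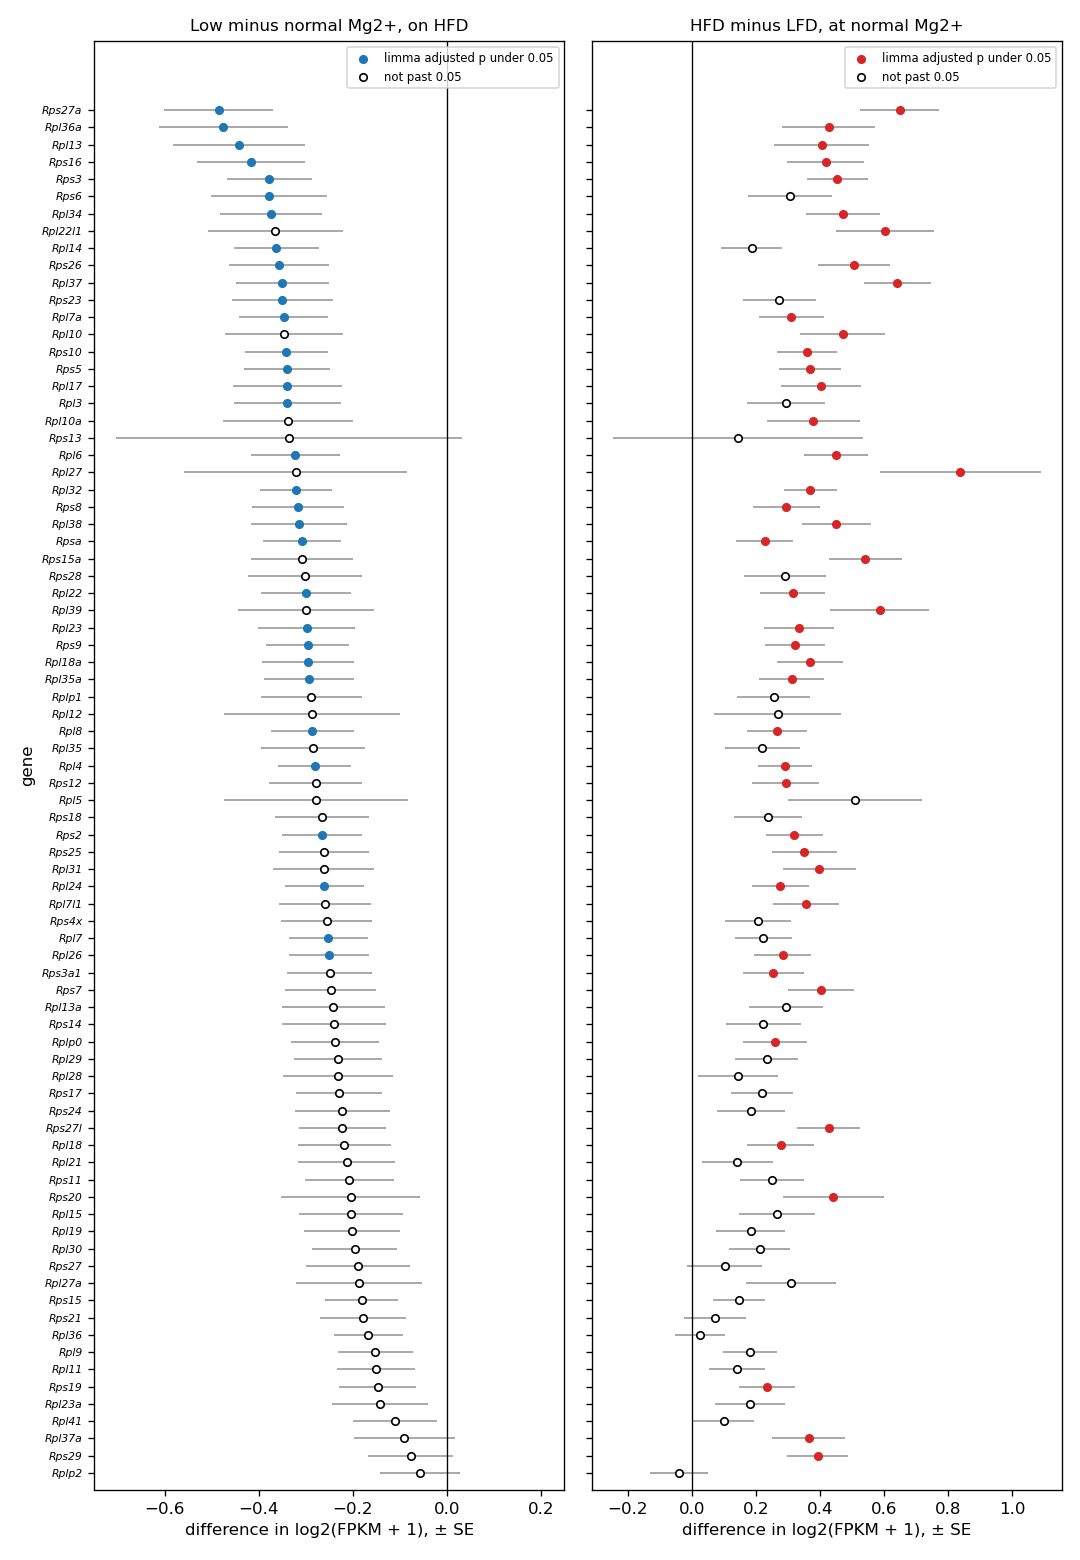
Difference in log2(FPKM + 1) ± SE for each of the 80 tested members, LowMg-HFD minus NormMg-HFD on the left and NormMg-HFD minus NormMg-LFD on the right, in 1 gene order. Filled points have a limma adjusted p under 0.05 (32 on the left, 46 on the right), and both panels share the NormMg-HFD mice.

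At low Mg2+ the high-fat diet gave 1 call. Rps29, a zinc-binding protein of the small subunit, read 169, 151, 159, 174 and 141 FPKM in LowMg-LFD mice and 209, 212, 177, 196 and 183 FPKM in LowMg-HFD mice, without overlap, and rose by 0.30 (adjusted p = 0.0301), where 12.4% of all genes rose. The sum of Rps29 with its copies differed by 0.14 ± 0.12 and was not called (adjusted p = 0.457). The call of the gene was lost in 9 of the 30 alternatives, among them without LowMg-HFD replicate 1, LowMg-HFD replicate 2, LowMg-LFD replicate 2 or LowMg-LFD replicate 5, while 4 members passed without LowMg-LFD replicate 4 and 2 without LowMg-HFD replicate 4 or NormMg-LFD replicate 3. The median difference of the 80 was 0.12 (all genes 0.10), and 75 were positive. It was 0.073 without LowMg-LFD replicate 1, 0.0067 after centring, with 36 of 80 negative, and 0.050 after quantile normalization, with 22 negative. Another 1 member, Rpl37, had groups that did not overlap (6.99% of all genes were higher without overlap).

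Ribosomal proteins that the symbol rule leaves out and other genes of the pathway were read from lists. Of 3 such genes, Rpl36al fell by 0.36 ± 0.09 on low Mg2+ on HFD (adjusted p = 0.00847) and rose by 0.43 ± 0.09 on HFD at normal Mg2+ (adjusted p = 0.00102). Rpl36al is also part of the Rpl36a family sum given above. Rack1, a scaffold on the small subunit, rose by 0.60 ± 0.12 on HFD (adjusted p = 0.000566) and differed by -0.31 ± 0.11 on low Mg2+ (adjusted p = 0.0615). Fau did not pass in either comparison.

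Of 15 further genes with TOP mRNAs, 4 fell on low Mg2+ on HFD and 7 rose on HFD at normal Mg2+, where 12.9% and 24.6% of all genes did. Tpt1 fell by 0.50 ± 0.12 (adjusted p = 0.00752), Npm1, a nucleolar chaperone, by 0.46 ± 0.11 (adjusted p = 0.00618), Eef1b2 by 0.39 ± 0.10 (adjusted p = 0.00861) and Eef1a1, the elongation factor that delivers aminoacyl-tRNA, by 0.24 ± 0.08 (adjusted p = 0.0479). Of 35 tested ribosome biogenesis genes 2 fell on low Mg2+, Pes1 by 0.44 ± 0.10 (adjusted p = 0.00516) and Eif6 by 0.40 ± 0.14 (adjusted p = 0.0478), and 9 rose on HFD, among them Nhp2 by 0.72 ± 0.15 (adjusted p = 0.000844). These counts were below the share of all genes on low Mg2+ and near it on HFD. The median of the list was -0.07 for low Mg2+ and 0.18 for HFD.

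In the mTORC1 pathway, which senses nutrients and growth factors at the lysosome, 3 of 21 tested genes fell on low Mg2+ on HFD, Lamtor3 by 0.40 ± 0.11 (adjusted p = 0.0181), Akt1s1 by 0.35 ± 0.10 (adjusted p = 0.0198) and Lamtor1 by 0.28 ± 0.08 (adjusted p = 0.0256). That was near the 12.9% of all genes that fell. On HFD at normal Mg2+ 7 rose, where 24.6% of all genes did, and Eif4ebp1, the translation repressor, fell by 0.44 ± 0.15 (adjusted p = 0.0284). By limma, 0 of 9 tested transcription factors of ribosomal protein genes passed in either comparison. At an unadjusted p under 0.05 it was 1 on low Mg2+, Myc, with a difference of -0.50 ± 0.21 (adjusted p = 0.106), and 0 on HFD. Of all genes 21.2% were lower at that threshold on low Mg2+, and 29.6% were higher and 16.2% lower on HFD.

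Mitochondrial ribosomal protein genes, which serve the separate ribosome of the mitochondrion, were read as the nearest other group. Of 73 tested genes 0 fell and 1 rose (Mrps7) on low Mg2+ on HFD, and 5 fell and 2 rose on HFD at normal Mg2+. Of all genes 12.9% fell and 5.58% rose in the first comparison, and 12.8% fell and 24.6% rose in the second. At an unadjusted p under 0.05 by limma, 5 of the 73 were lower and 2 higher on low Mg2+ on HFD, against 21.2% and 11.3% of all genes. The median differences of the 73 were -0.02 and 0.01. The difference between the cytosolic and the mitochondrial group was not tested. Of 11 reference genes for PCR 2 fell on low Mg2+ on HFD, Actb and Ywhaz, and 6, Rplp0 included, rose on HFD at normal Mg2+, against the same shares of all genes. Actb fell by 0.59 ± 0.13 on low Mg2+ on HFD (adjusted p = 0.00527) and rose by 1.12 ± 0.14 on HFD at normal Mg2+ (adjusted p = 5.47e-06).

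Among the members themselves, sharing, length and level were read in 3 groups of 26 or 27 members each. For low Mg2+ on HFD the median difference was -0.26 in the members with the fewest shared windows, -0.29 in those between and -0.27 in those with the most. By transcript length the medians were -0.27, -0.31 and -0.26 from the shortest to the longest. By mean level they were -0.29, -0.31 and -0.25, with 7, 17 and 8 members that fell, where 12.9% of all genes did. With copies summed into families, 42 of 75 fell on low Mg2+ on HFD (13% of all entries fell), with all 75 negative and a median of -0.28, and 47 rose on HFD at normal Mg2+ (24.6% of all entries rose).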

How the data were processed

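Total RNA of epididymal fat was sequenced by the authors with 50-base single-end reads, 1 library per mouse. Per the labels the reads were processed with HISAT, Bowtie2 and RSEM 1.2.31 on GRCm38 (mm10), and the deposited gene table holds FPKM. The deposited mapping table gives counts of reads per library and percent mapped; 24237 genes were read, and 26 symbols stored as dates were set back to gene names. Samples were grouped by their diet label. Depth was near equal between libraries, and since FPKM without gene counts gives no counting interval, errors are spreads between mice.

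Values were tested as log2(FPKM + 1) with limma 3.58.1 (R 4.3.3, intensity trend), in 1 fit of the 4 groups and 19 mice with 5 comparisons, without a replicate term. The filter kept 8336 genes, those with a group whose mean passed 8 FPKM and in which 4 mice or more did so. Benjamini-Hochberg adjustment ran over all of these at a threshold of 0.05. Fold changes are on the log2(FPKM + 1) scale, which understates those of low genes. The script was tested on simulated data. Promoters came from RefSeq and gene positions from GENCODE M21. Figures were drawn with matplotlib 3.10.9.

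Alternatives were the pseudocount (0.1), the filter (FPKM 1 or none), 4 scalings, no intensity trend, a replicate block, only the groups compared, and leaving out each mouse. Members and lists were chosen with earlier results of these data known. Named members were the 5 largest rises and falls per comparison past the threshold, the 5 highest and lowest in level, and the role lists, and genes outside the members were named by smallest adjusted p in their list. Rpl36, Rps15a, Rps20, Mrps7 and Fau were added after their values were seen. Replicate numbers did not pair the mice: the correlation of deviations from group means over 27 same-numbered pairs ran from -0.183 to 0.339.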

Additional observations from a re-analysis of the deposited data

Results flagged for a closer look

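Values far from the rest of their group, by Dixon's test on groups of 4 or 5 mice, were found in 22 of 169 groups of values. Chance gives about 1 in 20 for independent values, but the members move together within a mouse, and in 6 of the 22 all other mice of the group were at 0, where any value stands apart, so the count is not to be read against that rate. In NormMg-LFD, replicate 4 was highest for the share of summed FPKM in members (4.59%, next 4.00%), Rpl36a (154.8 FPKM, next 106.4), Rpl13a (843 FPKM, next 643), Rpl7 (401 FPKM, next 337), Rps4x (426 FPKM, next 336) and Rps18 (421 FPKM, next 338). In the same group Rpl3l was at 0.3 FPKM in replicate 5 and Rpl6l at 0.740 FPKM in replicate 3, with 0 in the others.

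In LowMg-LFD, Rplp1 was lowest in replicate 1 (652 FPKM, next 817), where Rpl39l (1.32 FPKM, next 0.330) and Rpl10l (0.510 FPKM, others 0) were highest. Replicate 4 was highest for Rpl7 (392 FPKM, next 330) and Rpl3l (0.690 FPKM, next 0.170).

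In NormMg-HFD, replicate 3 was highest for Rpl13 (524 FPKM, next 361), Rpl17 (376 FPKM, next 293), Rpl19 (433 FPKM, next 326) and Rps27 (492 FPKM, next 411). Rpl39l was at 1.31 FPKM and Rpl3l at 0.170 FPKM in replicate 4, and Rpl10l at 0.170 FPKM in replicate 1. In LowMg-HFD, replicate 4 was highest for Rpl39l (34.5 FPKM, next 1.31) and Rpl10l (19.3 FPKM, others 0).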

How the results depend on the processing

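For low Mg2+ on HFD the 32 calls became 11 of 84 without a filter on low values (3.85% of all genes fell), 18 after centring on each mouse's median gene (10.2%), 4 after quantile normalization (10.5%), and 18 without LowMg-HFD replicate 4 among genes with log2(FPKM + 1) over 3 (10.5%). Leaving out single mice gave 7 (without NormMg-HFD replicate 3) to 37. Among alternatives chosen after seeing the data, 17 members passed without NormMg-LFD replicate 3, LowMg-LFD replicate 4 and LowMg-HFD replicate 4 (the 3 libraries with most genes of another tissue), 18 without these and NormMg-LFD replicates 4 and 5, and 12 without NormMg-LFD replicate 4 and NormMg-HFD replicate 3 (8.63% of all genes). The median difference moved to -0.15 under quantile normalization. For HFD at normal Mg2+ the 46 calls became 24 after centring and 15 (2 lower) after quantile normalization, where the median was 0.11, 29 to 54 without single mice and 15 without the 5 libraries. For HFD at low Mg2+ the 1 call became 0 without a filter, after centring, after quantile normalization, with the replicate block, with only the groups compared and with copies summed. It became 2 when FPKM was rescaled to the same sum over all genes or over non-members, without LowMg-HFD replicate 4 above the log2 limit of 3, and without the 3 libraries, 3 without the 5, and was 0 to 4 without single mice. For the interaction the 0 calls became 1 without NormMg-HFD replicate 5 (range 0 to 1), and the median was -0.063 under quantile normalization. Why these scalings differ was not tested.

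Of the 80 members, 1 turned sign for low Mg2+ on HFD after centring and 6 after quantile normalization, and for HFD at normal Mg2+ 4 and 15 did. Among the members chosen by the naming rule the values were as follows. For low Mg2+ on HFD, Rplp2 was at 0.00054 after centring, and after quantile normalization Rplp2 was at 0.12, Rps29 at 0.059, Rpl11 at 0.0026 and Rpl23a at 0.061. For HFD at normal Mg2+, Rps27 was at -0.00056 after centring, and quantile normalization gave Rps27 -0.12, Rpl11 -0.098, Rpl19 -0.058, Rpl23a -0.072, Rpl7 -0.038, Rps4x -0.040 and Rps18 -0.0037, while without single mice Rplp2 ran from -0.089 (without NormMg-HFD replicate 3) to 0.0065 (without NormMg-HFD replicate 2). None of these values passed the threshold. For HFD at normal Mg2+ quantile normalization took Rplp2 to -0.22 (adjusted p = 0.0434) and turned Rpl36, outside the rule, to -0.22 (adjusted p = 0.0173), so both were called lower.

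With the replicate number as a block, 25 members fell on low Mg2+ on HFD (11.9% of all genes) and 46 rose on HFD at normal Mg2+ (24.3%). The pairing of the numbers was not borne out, since 5 of 27 pairs had a correlation over 0.1. FPKM without gene counts hides the counting error of low members, and reads shared with copies limit what is known of any single gene.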
